A study of Rattus norvegicus with 7 samples.

Results

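miR-22 was followed through both of its mature arms, rno-miR-22-3p and rno-miR-22-5p (below without the species prefix), in rat primary skeletal muscle cells differentiated with or without interleukin-6 (IL-6). The 2 arms were taken by name from the 719 rat miRNAs on the array, together with all 3 of their probes among 1730. The cells came from limb muscle of newborn rats and had been frozen at an early passage. RNA was taken on day 11 after the switch to 2% horse serum, which makes myoblasts leave the cell cycle and fuse. The control group was 3 untreated samples, and the treated group was 4 samples with recombinant IL-6 at 1 ng/ml, a cytokine released by contracting muscle, during the 11 days. The sample titles and the series design separate the groups, whereas the text on cell culture mentions IL-6 for every sample, controls included. The labels give no strain or sex and do not say whether replicates are separate cultures or donors, so the p-values below measure only the spread between these samples.

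A miRNA gene is transcribed as a long precursor whose hairpin is cut to a short duplex, and 1 strand of that duplex, the guide, stays bound to an Argonaute protein. The other strand is usually discarded and degraded, so the arms of a hairpin are made together and can reach different levels. miR-22-3p is the usual guide strand of its hairpin. In mice miR-22 is enriched in heart and skeletal muscle, where it represses Sirt1, a deacetylase that responds to the energy state of the cell, and Hdac4, a repressor of muscle genes.

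The hairpin and both mature arms are shown because every measurement below depends on which strand a probe pairs with. In the RefSeq table for build GRCr8 the Mir22 hairpin lies on the plus strand at chr10:60805331-60805425, miR-22-5p at chr10:60805349-60805370 and miR-22-3p at chr10:60805387-60805408. No other gene in that table overlaps the hairpin, which lies between the protein-coding genes Wdr81 and Tlcd2 and next to a second miRNA gene, Mir6326. The miRNA from that neighbour, miR-6326, was detected on 0 of the 7 arrays. In the mature sequences the capitals mark the seed, bases 2 to 8, through which a miRNA recognises its targets. In the hairpin the capitals mark the 5p arm and then the 3p arm.
miR-22-3p: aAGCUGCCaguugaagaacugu
miR-22-5p: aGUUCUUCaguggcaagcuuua
Mir22 hairpin: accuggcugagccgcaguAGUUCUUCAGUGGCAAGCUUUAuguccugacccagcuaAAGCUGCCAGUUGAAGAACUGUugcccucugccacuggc
Of 693 mature rat miRNAs in the RefSeq table, 0 others carry the seed of miR-22-3p and 0 others that of miR-22-5p, so neither arm has a seed family there. RNAfold gave the 95-base hairpin a predicted folding energy of -43.0 kcal/mol. In that predicted fold 19 base pairs join the 2 arms, 1 of them a G-U pair, and all 7 seed bases of each arm are paired with the opposite arm.

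The array reads miR-22-3p with 2 probes and miR-22-5p with 1. The probe sequences are shown because they set what the signals can and cannot tell apart. Capitals mark the probe bases that pair with the seed of the miRNA.
Brighter miR-22-3p probe, A_26_P00001213: acagttcttcaactGGCAG
Dimmer miR-22-3p probe, A_26_P00001212: acagttcttcaactGGCA
miR-22-5p probe, A_26_P00002016: taaagcttgccactGAAG
The brighter 3p probe pairs with bases 4 to 22 of the miRNA, and the dimmer one and the 5p probe pair with bases 5 to 22. The probes therefore cover 5, 4 and 4 of the 7 seed bases, and none covers the first 3 bases of the miRNA. The longest stretch of miR-22-3p that a probe for another miRNA matched was 7 bases, and for miR-22-5p it was 8 bases, among 1727 other probes.

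Both arms were detected on each of the 7 arrays. Of 140 spots for miR-22-3p, 1 was marked as an outlier and left out, and of 140 for miR-22-5p, 5. All outlier spots were on control arrays 1 and 2. Each of the 139 and 135 spots used was well above background, and 0 spots were saturated. The coefficient of variation among the spots of a probe on 1 array ran from 2.69% to 6.48% for miR-22-3p and from 2.40% to 5.73% for miR-22-5p. The dim 5p arm was thus measured about as precisely as the bright 3p arm.

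The cells behind these signals were checked with miRNAs known to mark cell types. Of 7 skeletal muscle markers on the array (miR-206-3p, miR-499-5p, miR-1-3p and the a and b forms of miR-133-3p and miR-208-3p), 7 were detected on no array. Their highest probe signal as scanned was 9.23 intensity units. The floor applied after scaling was 15.8, the median over the arrays of the dimmest probe signal well above background. It is no detection limit, since miR-18a-5p was detected on 6 arrays with no value above it. The miR-22 values therefore come from cultures labelled as differentiated muscle in which the defining muscle miRNAs were not detected. Of 6 fibroblast and smooth muscle markers, 5 were detected on every array, with a summed signal as scanned of 27690 to 35263 in control and 25632 to 39175 with IL-6, so that the groups overlapped. Endothelial and epithelial markers were detected on no array (0 of 2 and 0 of 6), and of 6 blood markers 1, miR-223-3p, was detected, on 1 array. Of 6 neural markers, 3 were detected on every array, at summed signals of 144 to 211 in control and 185 to 274 with IL-6. Their part in the miR-22 signals was not tested. In such bulk RNA, fewer cells of a type and less RNA per cell cannot be told apart.

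The first comparison asks whether miR-22 changes when IL-6 is present during differentiation. Neither arm passed the test. Scaled signals divide each spot mean by the 75th percentile of the array and keep intensity units. The brighter miR-22-3p probe gave 7426, 7255 and 7159 units in control replicates 1 to 3. With IL-6 it gave 7145, 6398, 6759 and 6794 units in replicates 1 to 4. Every IL-6 array lay below every control array, but the gap between the lowest control and the highest IL-6 array was 0.0028 on the log2 scale, less than the spot noise of a single array mean (0.02 to 0.03). IL-6 replicate 2 was the lowest and IL-6 replicate 1 the highest of its group, nearly level with the controls.

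The dimmer miR-22-3p probe gave 3346, 3385 and 3384 units in control. With IL-6 it gave 3317, 3013, 3126.5 and 3260 units. The groups again did not overlap, and IL-6 replicates 1 and 2 were again the highest and lowest of the treated arrays. Both probes pair with the same molecule and share the samples, so their order is not a second observation of the treatment.

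The miR-22-5p probe gave 84.8, 91.8 and 88.7 units in control. With IL-6 it gave 87.8, 89.1, 88.0 and 92.4 units. The groups overlapped: 3 of the 4 IL-6 arrays fell within the control range, and control replicate 1 was the lowest of all.

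**Figure D1:**
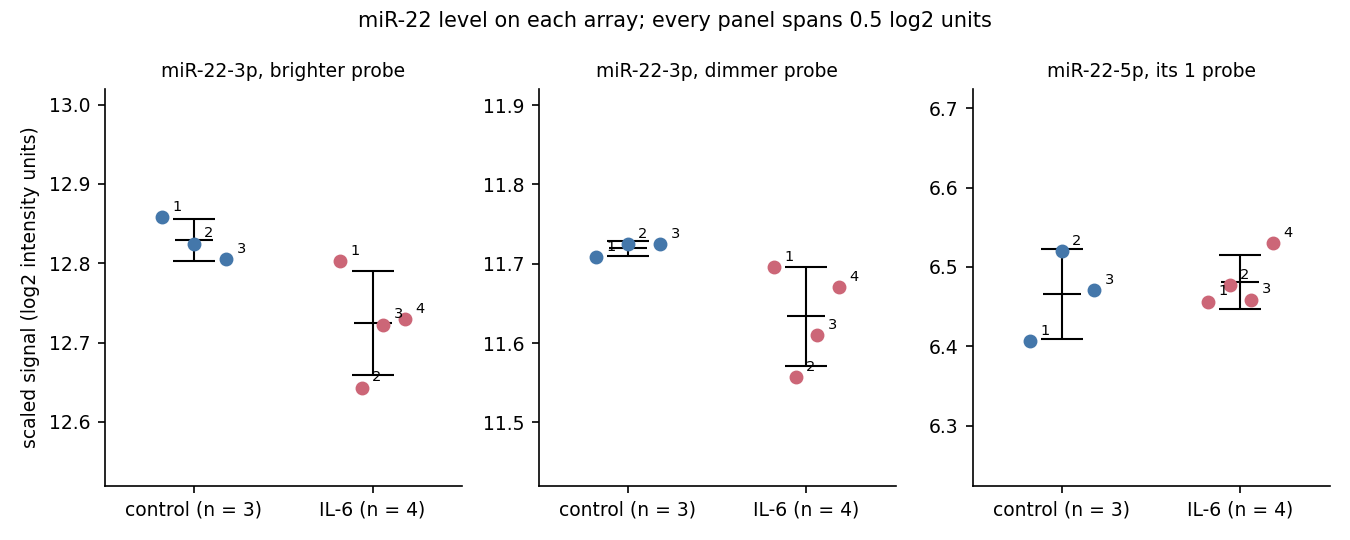
Scaled signal of the 3 miR-22 probes on each array, in log2 intensity units, with numbers for replicates, bars for the mean and whiskers for ± 1 SD (3 control and 4 IL-6 arrays). Every panel spans the same 0.5 log2 units: the IL-6 points of both 3p probes lie below the controls by a narrow margin, and those of the 5p probe overlap them.

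On the log2 scale miR-22-3p was 12.83 ± 0.03 in control (SD, n = 3) and 12.72 ± 0.07 with IL-6 (SD, n = 4). The log2 fold change of -0.10 ± 0.04 (SE), or -7.01%, did not pass (limma, Benjamini-Hochberg adjusted p = 0.154 over 181 tested miRNAs). Its 95% interval before adjustment ran from -0.20 to -0.0066 on the log2 scale, which is -13.1% to -0.455%. A 2-sided exact permutation test over the 35 splits of the arrays gave p = 0.0571, where the smallest possible is 0.0286. The dimmer probe had a log2 fold change of -0.09 ± 0.06 (SE) in a limma fit over 292 probes, with an adjusted p of 0.375. The brighter probe had an adjusted p of 0.284 there, and its 95% interval of -0.24 to 0.03 crossed 0. The interval thus depends on which features share the fit. The SE of miR-22-3p was also 0.06 with only miRNAs detected on all arrays, and 0.06 with a floor 0.5 times as high. The 2 probes thus gave sizes that differed by less than either SE. Without scaling and with spike-in scaling the log2 fold change of miR-22-3p turned to 0.07 and 0.08, while the median of all tested miRNAs moved from 0.02 to 0.17 and 0.18. Relative to that median miR-22-3p was -0.12 as reported, -0.10 without scaling and -0.10 with spike-in scaling. With quantile normalization the log2 fold change was -0.05 (limma adjusted p = 0.581), only -0.04 relative to the median, and with normexp background it was -0.12, or -0.20 relative to the median.

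miR-22-5p was 6.47 ± 0.06 in control (SD, n = 3) and 6.48 ± 0.03 with IL-6 (SD, n = 4). Its log2 fold change was 0.01 ± 0.03 (SE), or 1.03% with a 95% interval of -4.77% to 7.19% (limma, Benjamini-Hochberg adjusted p = 0.863). The 2-sided exact permutation test gave p = 0.771. The interval bounds the change and does not show that the level was equal. The sign of the 5p change varied with the scaling, from -0.13 ± 0.28 (SE) with the 75th percentile over all probes to 0.20 ± 0.11 (SE) with spike-in scaling. It also turned with the scaling unchanged, to -0.0016 with array weights and -0.0148 without control replicate 1.

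Among all 181 tested miRNAs, 17 passed at an adjusted p under 0.05 (9.39%), 9 higher (4.97%) and 8 lower (4.42%), and neither arm of miR-22 was among them. The higher and lower counts were 0 and 0 without control replicate 1 and 0 and 2 without control replicate 2. They were 1 and 4 without IL-6 replicate 3 and 1 and 5 without IL-6 replicate 4. They were also 0 and 0 without scaling, with the 75th percentile of all probes, normexp background, no filter or the slide column as a block, 4 and 0 with spike-in scaling, and 0 and 3 with the replicate number as a block. An unadjusted p under 0.05 was reached by 49 (27.1%), 20 lower (11.0%) and 29 higher (16.0%), with miR-22-3p 47th in order of p and miR-22-5p 144th. Groups that did not overlap were found for 40 (22.1%), 21 of them higher (11.6%) and 19 lower with IL-6 (10.5%), miR-22-3p among the latter. A miRNA without overlap was therefore common in these arrays. The absolute change was larger than that of miR-22-3p in 76 miRNAs and larger than that of miR-22-5p in 163. The arms were among the more tightly measured miRNAs, with a within-group SD of 0.05 for miR-22-3p and 0.04 for miR-22-5p on the log2 scale against a median of 0.09. A smaller SD was found in 32 miRNAs for the first and in 18 for the second.

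**Figure D2:**
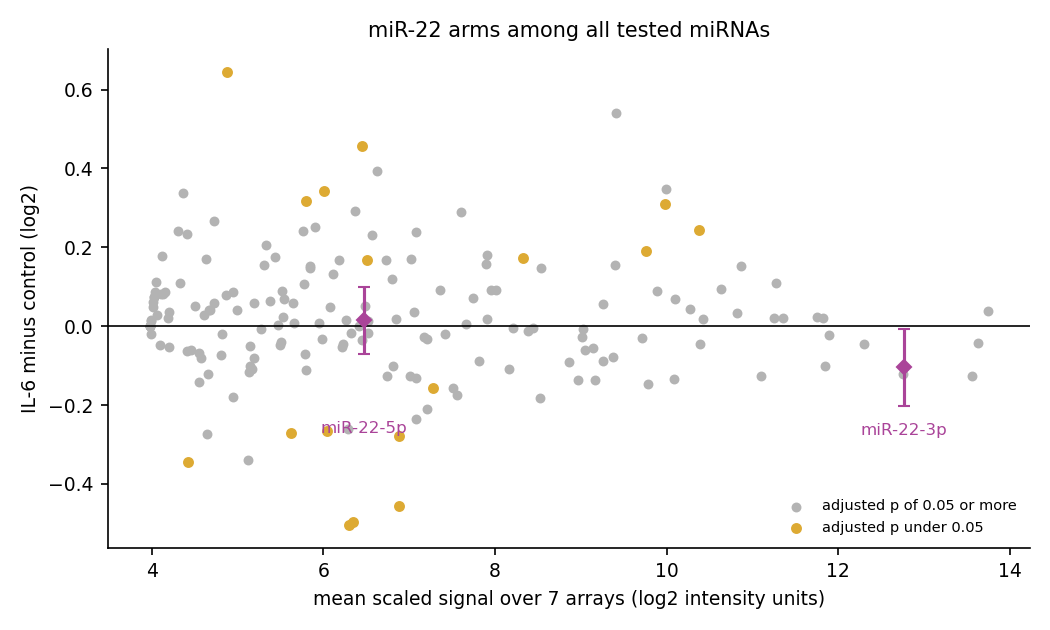
Log2 fold change (IL-6 minus control) against the mean scaled log2 signal for the 181 tested miRNAs, with miR-22-3p and miR-22-5p as diamonds with 95% intervals and the 17 miRNAs past an adjusted p of 0.05 in yellow. Both miR-22 arms lie in the grey body of the plot, the 3p arm far to the right at 12.77 and the 5p arm at 6.47.

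The spread between arrays was set beside the spread among the spots of each probe. Between control arrays the SD of the brighter 3p probe was 0.03 on the log2 scale, 0.940 times the spread that its spots alone would give, and that of the dimmer probe 0.496 times. Between IL-6 arrays the same ratios were 2.94 and 2.71. For the 5p probe the ratio was 4.77 among controls and 2.28 with IL-6. These ratios rest on 3 and 4 arrays and were not tested, so no difference between the arms is read from them.

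Before scaling, both arms tracked the brightness of the array, which here means the 75th percentile of its miRNA probes. miR-22-3p did so less steeply. As scanned, the brighter 3p probe gave 6284, 6834 and 7116 units in control and 6257, 7945, 7140 and 7092 with IL-6. The 5p probe as scanned gave 71.8, 86.5 and 88.1 units in control and 76.9, 111, 92.9 and 96.5 with IL-6. IL-6 replicate 2 was the brightest and control replicate 1 the dimmest of the 7 arrays, with scaling factors of 1.24 and 0.846. The spike-in signals did not follow this order. Their mean log2 was 11.86 on IL-6 replicate 2 and on control replicate 2, 11.80 on control replicate 1 and lowest, 11.74, on IL-6 replicate 1. What sets the 75th percentile was not tested. The span over the arrays was 0.34 on the log2 scale for the brighter 3p probe, 0.40 for the dimmer one and 0.62 for the 5p probe, against 0.55 for the 75th percentile. A slope of 1 on the log2 of the 75th percentile means that a probe follows the brightness in full. That slope was 0.625 and 0.717 for the 3p probes and 1.09 for the 5p probe. It had a median of 1.11 over the 67 brightest of the 268 probes used for scaling, where the 3p probes belong. After scaling, the 3p signal was lowest on the brightest array. Brightness also moved with treatment, since 3 of the 4 IL-6 arrays had factors above all controls (1.04 to 1.24 against 0.846 to 0.994). Its part in the 3p values was not tested.

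**Figure D3:**
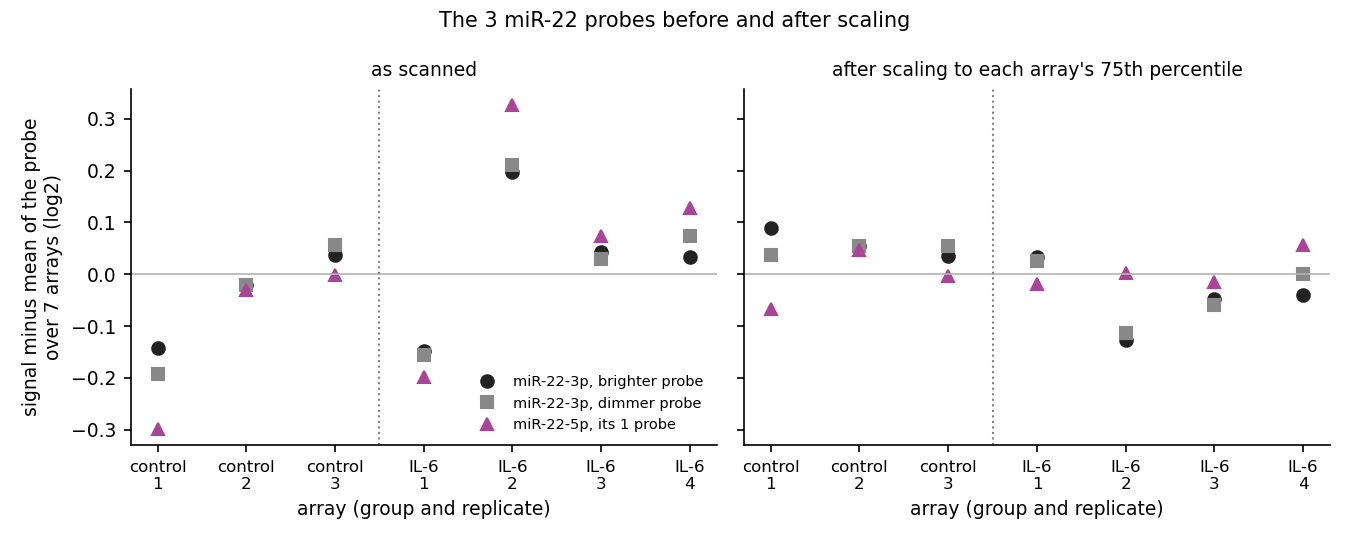
Log2 signal of the 3 miR-22 probes on each of the 7 arrays, minus the mean of that probe, as scanned (left) and after scaling to the 75th percentile of each array (right). As scanned all probes are highest on IL-6 replicate 2, and after scaling the 3p probes are lowest there while the 5p probe lies near 0.

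The next comparison asks whether the balance of the 2 arms shifts with IL-6, since both come from 1 precursor. The difference of log2 signals within an array, 3p minus 5p, removes a factor that acts equally on both probes. With the brighter 3p probe it was 6.45, 6.30 and 6.34 in control and 6.35, 6.17, 6.26 and 6.20 with IL-6. The groups overlapped, because IL-6 replicate 1 lay above control replicates 2 and 3. The probes followed array brightness unequally (slopes of 0.625 and 1.09, above). Those slopes come from the same arrays and signals as the difference, so they restate how it moved with brightness and do not explain it. The difference was highest, 6.45, on the dimmest array (control replicate 1) and lowest, 6.17, on the brightest (IL-6 replicate 2). As 3 of the 4 IL-6 arrays were brighter than all controls, brightness moved with treatment here too, and its part in the arm difference was not tested. The mean was 6.36 ± 0.08 in control (SD, n = 3) and 6.24 ± 0.08 with IL-6 (SD, n = 4), a shift of -0.12. It did not pass the 2-sided exact permutation test (p = 0.143, smallest possible 0.0286). With the dimmer 3p probe the shift was -0.10 (exact permutation p = 0.0857).

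As a ratio of signals, 3p was 82.4 times 5p in control and 75.8 times with IL-6, over a range of 71.8 to 87.5 on the 7 arrays. With the dimmer 3p probe the ratios were 38.1 and 35.6. The 2 probes of miR-22-3p, which differ by 1 base, themselves differed by 2.16 times in control and 2.13 times with IL-6 on the same RNA. A ratio of signals from different probes is therefore no ratio of molecules, and only its change between groups is read here. The ratio between these 3p probes was stable, at 2.08 to 2.22 on all arrays.

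The arm difference was also fitted for all 24 hairpins with both arms tested. For miR-22 the shift was -0.12 ± 0.07 (SE) with a 95% interval of -0.28 to 0.04 (limma, Benjamini-Hochberg adjusted p = 0.321). By size it ranked 11th of the 24 and by p 8th. At an adjusted p under 0.05, 0 hairpins passed (0.00%), and 5 (20.8%) had an unadjusted p under 0.05 (limma), with miR-22 not among them. The miR-22 shift thus sat in the middle of those of the other hairpins. Under quantile normalization, which gives every array the same distribution, the shift of miR-22 was 0.0035 (exact permutation p = 1).

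**Figure D4:**
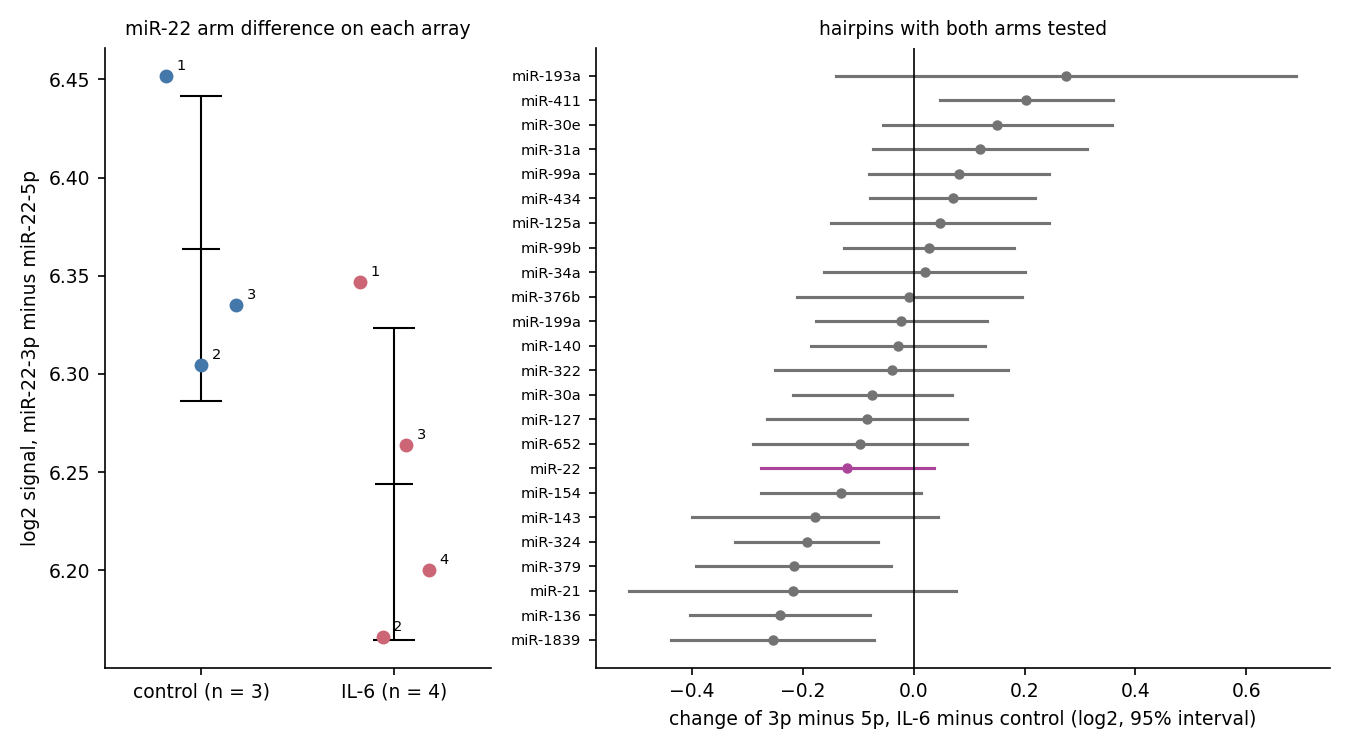
Left, log2 signal of miR-22-3p (brighter probe) minus miR-22-5p on each array, with mean and ± 1 SD for 3 control and 4 IL-6 arrays. Right, change of the 3p minus 5p difference (IL-6 minus control, log2, limma with 95% intervals) for the 24 hairpins with both arms tested. The miR-22 interval, in purple, runs from -0.28 to 0.04 and crosses 0.

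The arrays lay on 1 slide with 1 scan time, the controls all in 1 row and the treated arrays in the second, and row position and treatment cannot be told apart. Of the 4 slide columns, 3 held 1 array of each group. Within these columns miR-22-3p differed by -0.06, -0.10 and -0.08 on the log2 scale (IL-6 minus control). As its groups did not overlap, every pairing of an IL-6 array with a control array is negative, so this direction adds no support. miR-22-5p differed by 0.05, -0.06 and 0.06, with no common direction. The arm difference was -0.11, -0.04 and -0.14. Deviations of same-column arrays from their group means correlated over miRNAs at 0.52, 0.19 and 0.13. Arrays of different columns gave -0.44 to 0.29, so 0.19 and 0.13 are not particular to a shared column. The pair at 0.52 also shared its replicate number. With the column as a block, miR-22-3p had a log2 fold change of -0.08 ± 0.02 (SE) and miR-22-5p 0.02 ± 0.04 (SE), and neither passed (limma adjusted p = 0.137 and 0.814). That fit takes no contrast from IL-6 replicate 2, whose column held no control.

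The pattern of miR-22-3p across the 7 arrays was set against that of 175 other tested miRNAs, as Pearson's r of scaled log2 signals. The most similar were miR-290 (r = 0.958), miR-3593-3p (0.904), miR-222-3p (0.902), miR-324-3p (0.901) and miR-664-3p (0.883). Without IL-6 replicates 2 and 3, the arrays farthest from the median of miR-22-3p, these r were 0.920, 0.865, 0.810, 0.629 and 0.881. The most opposed were let-7c-5p (-0.945), let-7e-5p (-0.932) and miR-582-5p (-0.873). As scanned, the same 3 opposed miRNAs had r of 0.935, 0.926 and 0.929 with miR-22-3p. High values were general there: the median r over the 175 miRNAs was 0.89 as scanned and -0.16 after scaling. None of these 8 miRNAs passed between the groups (adjusted p of 0.0839 to 0.358 by limma). The 5 most similar had log2 fold changes of -0.26 to -0.11 (IL-6 minus control) and the 3 most opposed 0.11 to 0.23. Their r therefore includes the difference between the groups as well as the spread within them. The partner arm, miR-22-5p, ranked 106th, with r = -0.329 after scaling and 0.969 as scanned. The scaled r between the arms was -0.722 without IL-6 replicates 2 and 3. It was 0.285 without control replicate 1 and IL-6 replicate 4, the arrays farthest from the median of miR-22-5p. Once scaled, the arms of the hairpin thus showed no stable common pattern, over a range that was small for both. All r are over 7 arrays that share a slide and are descriptions, not tests.

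miR-22 was placed among miRNAs with related roles. Of 24 names for muscle metabolism and insulin signalling, 22 were on the array and 15 were tested, both arms of miR-22 included. Of the 15, 0 were higher and 0 lower at an adjusted p under 0.05 (limma), 7 had a positive and 8 a negative fold change, and their median log2 fold change was -0.05 against 0.02 over all 181. Besides miR-22-3p the brightest were miR-143-3p, which impairs insulin signalling in mouse liver (-0.13 ± 0.08 SE), and miR-23a-3p, which represses atrophy genes in mouse muscle (-0.12 ± 0.06 SE). Groups did not overlap for 4 of the 15. These were miR-22-3p, miR-23a-3p, miR-107-3p (-0.14 ± 0.05 SE) and miR-29b-3p (0.35 ± 0.11 SE), the last 2 named after their values were seen. miR-107-3p controls insulin sensitivity in mice, and miR-29b-3p represses collagens. In this list 4 of 15 compares with 22.1% of all tested miRNAs. Values in the list ran from -0.14 (miR-107-3p) to 0.35 (miR-29b-3p), with miR-22-3p, itself a member, at -0.10.

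The change of each arm was recomputed under every alternative. In 26 alternatives miR-22-3p had a log2 fold change between -0.25 and 0.08 and miR-22-5p between -0.13 and 0.20. Both lower ends came from the 75th percentile over all probes, where the SE was 0.27 and 0.28. Of the 26 alternatives, 1 brought miR-22-3p past the test, limma with array weights (-0.12 ± 0.03 SE, Benjamini-Hochberg adjusted p = 0.0326). That fit called 29 higher and 18 lower miRNAs in place of 9 and 8. For miR-22-5p 0 of the alternatives passed.

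**Figure D5:**
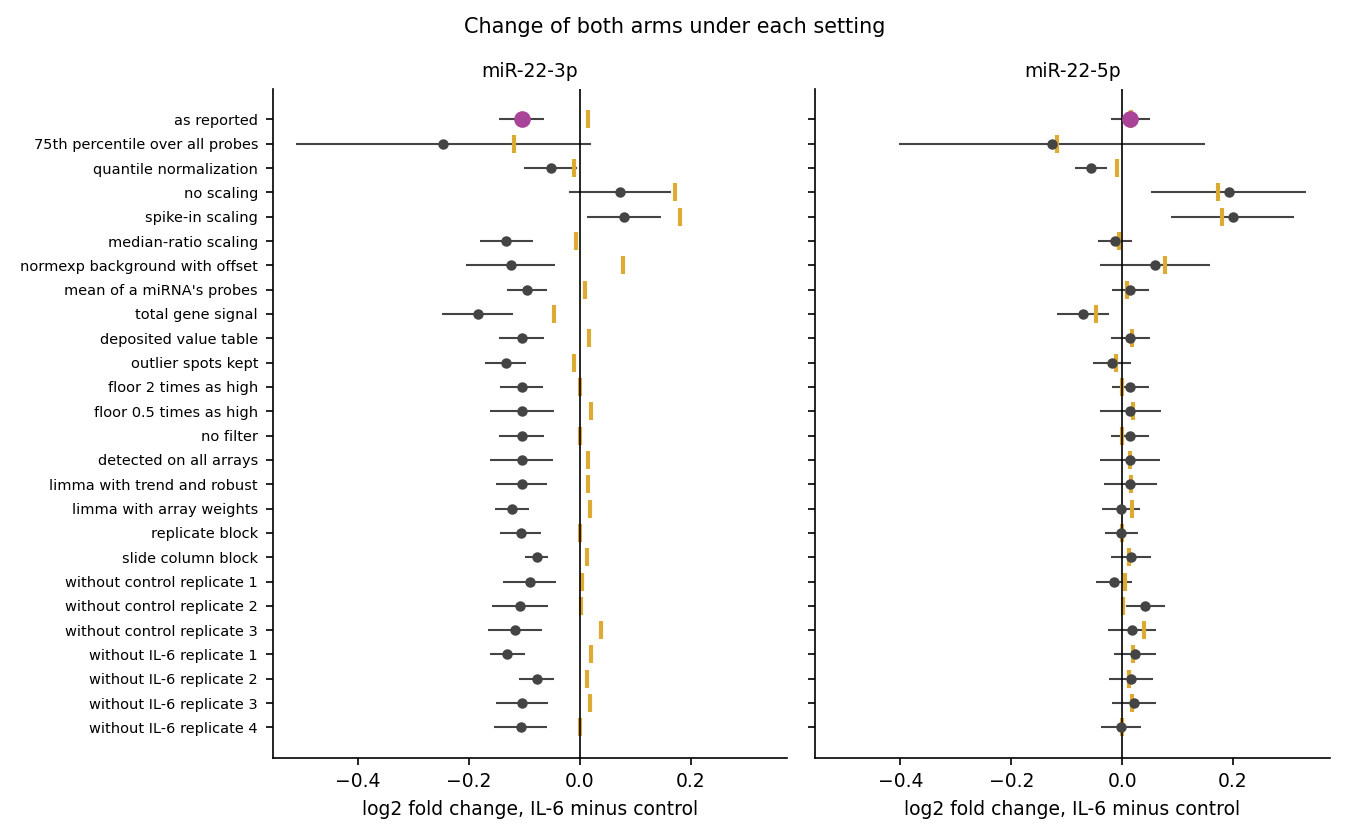
Log2 fold change (IL-6 minus control) of miR-22-3p and miR-22-5p under each alternative fitted with limma, with ± 1 SE, the reported value in purple and the median of all tested miRNAs as a yellow tick. The 3p points lie to the left of the tick in each setting shown, also where they are above 0, and the 5p points stay close to it.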

How the data were processed

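Total RNA (RIN 9.5 to 10, per the labels' protocols) received a Cy3 label and each sample was put on 1 Agilent array for rat miRNAs. The authors deposited spot intensities from Feature Extraction 10.10.1.1, per the submitters' processing notes and the file headers. They are linear, background-subtracted and not scaled between arrays. Their deposited value table holds the total probe signal of the same spots. Non-control spots not marked as outliers were averaged per probe, divided by the array's 75th percentile, taken over 268 probes that every array measured well above background. Values under 15.8 units were raised to that floor, and all were put on the log2 scale. Each miRNA took its brightest probe. The tested miRNAs were the 181 that all arrays of either group detected. The comparison used limma 3.58.1 (R 4.3.3) with Benjamini-Hochberg adjustment and a threshold of 0.05. With 7 arrays precision is limited; log2 fold changes had a median SE of 0.07. The hairpin was folded with RNAfold 2.7.2. The fit was tested on simulated data.

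Members, lists and tests were chosen with earlier results of these data known. Named miRNAs were both arms, the 5 most and 3 least similar to miR-22-3p, and of the list those past the threshold up to 4, then the brightest until 3 were named. Alternatives covered scaling, background, probe summary, source of values, outlier spots, floor, filter, limma settings, blocks and left-out arrays. The fit over hairpins and the arm difference with the dimmer 3p probe were chosen after seeing the data. miR-378a-3p, miR-193b-3p and miR-486 were not matched by name and not analysed here. A second list of miRNAs is not reported here. Sequences and positions are those of RefSeq on GRCr8; both arms and the hairpin matched by name. Probe positions in the files refer to another build, rn4, and are not printed.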

Additional observations from a re-analysis of the deposited data

How the results depend on the processing

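miR-22-3p kept its direction and its side of the threshold in 23 of 26 alternatives. It turned to 0.0726 without scaling and 0.0796 with spike-in scaling, and passed at -0.12 with array weights. The arm difference kept both in 26 of 27 and turned to 0.0035 under quantile normalization. Many of the 26 could not have changed it, so their number is no measure of stability. A single factor per array cancels within the array, and filters and limma settings do not enter the value. The replicate and slide column blocks gave no p for it, so only its direction was compared there. miR-22-5p was -0.126 when the 75th percentile was taken over all probes, -0.0559 with quantile, -0.0127 with median-ratio scaling, -0.0704 with total gene signal, -0.0188 with outlier spots kept, -0.0016 with array weights and -0.0017 with the replicate block. Leaving out 1 array gave -0.131 to -0.0777 for miR-22-3p, -0.0148 to 0.0421 for miR-22-5p and -0.154 to -0.0756 for the arm difference. miR-22-5p was below 0 when control replicate 1 (-0.0148) or IL-6 replicate 4 (-0.0017) was left out. In the probe fit the dimmer 3p probe turned to 0.0917, 0.0987 and 0.0164 without scaling, with spike-in scaling and with quantile, and the brighter one to 0.0726 and 0.0796 with the first 2.

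The counts of 9 higher and 8 lower became 0 and 0 under a 75th percentile of all probes, no scaling, normexp, no filter and the slide column block (limma; 1, 29, 7, 41 and 52 with an unadjusted p under 0.05). They became 4 and 0 with spike-in scaling and 0 and 3 with the replicate block, and 29 and 18 with array weights. The higher count was 5 with total gene signal; the lower count was 14 with median-ratio scaling and 5 with a floor 2 times the main one. With outlier spots kept they were 6 and 12, and with quantile 7 and 11. Leaving out 1 array gave 0 to 10 higher and 0 to 7 lower, at 0 and 0 with control replicate 1 left out, 0 and 2 for control replicate 2, 1 and 4 for IL-6 replicate 3 and 1 and 5 for IL-6 replicate 4. Fewer samples or degrees of freedom remain in the blocks and left-out fits; otherwise the cause was not tested.

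The labels do not say whether replicate numbers pair the samples. Deviations of same-numbered arrays correlated at 0.52, -0.18 and 0.26 over miRNAs, and those of differently numbered arrays at -0.44 to 0.29. So few pairs cannot settle it. With the replicate block miR-22-3p was -0.11 and the arm difference -0.10, and neither arm passed.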
